A study of Homo sapiens with 60 samples.

Results

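The 7 drug efflux pumps of the ATP-binding cassette (ABC) family followed here, ABCB1, ABCC1, ABCC2, ABCC3, ABCC4, ABCC5 and ABCG2, were taken by their Ensembl identifiers from a table of 60675 genes. All 7 were detected and passed the low-count filter that left 16978 genes for testing. The transcripts were measured by RNA-seq in HT29, a long-established line from a human colorectal adenocarcinoma, after 24 h with an ethanol extract of an herb or formula. The extract groups were Polygalae Radix (15.2, 76 and 380 µg/mL), Aucklandiae Radix (14.8, 74 and 370 µg/mL) and Soyo-san (20, 100 and 500 µg/mL), with 2 libraries per dose. Menthae Herba, Saposhnikoviae Radix, Saengmaek-san and Guibi-tang had 3 libraries per dose at 20, 100 and 500 µg/mL, and Okbyeongpung-san had 1 library at each of the same doses. These 3 doses are called low, medium and high, and medium and low are 5- and 25-fold dilutions of high. The text on the whole series names an IC20, a 20% inhibitory concentration, and the dose limit was 500 µg/mL. How far each high dose inhibited the cells is not in the sample labels, so high doses need not be equally toxic. The vehicle group had 3 libraries, labelled 0.1% DMSO for each sample and 2% in the text on the whole series. Polygalae Radix, Aucklandiae Radix and Menthae Herba, like Saposhnikoviae Radix, are single herbs, and the names ending in -san or -tang are formulas. Whether replicate libraries came from different cultures is not in the labels. The p-values therefore rest on a spread that could be technical.

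ABC pumps bind ATP at a pair of intracellular domains and move their substrates out of the cell. In the gut, ABCB1 (P-glycoprotein), ABCG2 (breast cancer resistance protein) and ABCC2 (MRP2) sit in the membrane that faces the lumen and return drugs, plant compounds and their conjugates to it. ABCC3 (MRP3) and ABCC1 (MRP1) sit on the side that faces the blood. ABCC4 (MRP4) and ABCC5 (MRP5) also export cyclic nucleotides. Genes of this group are known targets of receptors and stress factors that sense foreign compounds, among them AHR, NRF2 and PXR. What was measured here is mRNA, not transport. In bulk cultures, fewer cells with a transcript and less of it per cell cannot be told apart.

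Upstream sequence is shown for the 3 pumps, ABCG2, ABCC2 and ABCC4, that were called at high against low dose in more than 1 extract and had a matched RefSeq promoter entry on GRCh38.p14. They were picked after these calls were seen. Of the 5 ABCG2 windows the one at the most downstream start is printed. Each run is the 250 bases before a transcription start, 5′ to 3′ on the gene's strand. Capitals mark the core of the antioxidant response element, TGANNNNGC, and the core of the dioxin response element, GCGTG, read on either strand. These cores are the letters that NRF2 and the AHR complex are known to bind.
ABCG2, chr4:88158640-88158889, minus strand: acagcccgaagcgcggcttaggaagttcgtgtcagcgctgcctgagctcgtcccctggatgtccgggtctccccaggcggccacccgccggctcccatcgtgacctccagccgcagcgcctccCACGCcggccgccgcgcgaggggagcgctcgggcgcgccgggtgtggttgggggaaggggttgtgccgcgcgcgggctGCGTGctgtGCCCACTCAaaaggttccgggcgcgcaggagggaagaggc
ABCC2, chr10:99782390-99782639, plus strand: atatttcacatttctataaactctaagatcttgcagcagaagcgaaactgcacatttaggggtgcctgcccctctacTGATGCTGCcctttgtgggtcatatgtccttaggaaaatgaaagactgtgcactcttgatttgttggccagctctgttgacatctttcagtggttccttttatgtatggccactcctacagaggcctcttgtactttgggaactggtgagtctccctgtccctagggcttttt
ABCC4, chr13:95301452-95301701, minus strand: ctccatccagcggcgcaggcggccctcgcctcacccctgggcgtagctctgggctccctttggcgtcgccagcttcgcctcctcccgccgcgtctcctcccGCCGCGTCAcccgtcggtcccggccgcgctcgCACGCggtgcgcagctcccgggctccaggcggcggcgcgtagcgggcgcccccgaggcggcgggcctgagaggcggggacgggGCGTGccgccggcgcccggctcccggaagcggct
The printed ABCG2 and ABCC4 windows held 1 TGANNNNGC and 2 GCGTG each, and the ABCC2 window held 1 TGANNNNGC and no GCGTG. The other ABCG2 windows differed among themselves. Those that start at 88158860 and 88158910 overlap each other and held the same matches, 1 TGANNNNGC and 2 GCGTG. The window at 88159291 held 1 TGANNNNGC and 0 GCGTG, and the one at 88231627 held neither. No match overlapped another in these windows. The TGANNNNGC core was present in 35.2% and GCGTG in 32.2% of the 35116 promoters of the same length in that table, and 12.0% held both. A match is only a run of letters and was not tested as a site. In all, 5 of the 7 pumps had 10 entries, of which ABCG2 had 5 and ABCB1 had 2. ABCC1 and ABCC3 are named only.

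The genes lie at chromosome 7, 87503633 to 87713323 (ABCB1), chromosome 16, 15949577 to 16143074 (ABCC1), chromosome 10, 99782640 to 99852594 (ABCC2), and chromosome 17, 50634777 to 50692252 (ABCC3). ABCC4 lies at chromosome 13, 95019829 to 95301475, ABCC5 at chromosome 3, 183919934 to 184018015, and ABCG2 at chromosome 4, 88090264 to 88231322. These are GENCODE 29 coordinates on GRCh38. All 7 are annotated as protein-coding, and no gene that overlaps them shares an exon base with them. The nearest case, RUNDC3B on the strand opposite to ABCB1, had a median of 2 reads per library.

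Library totals ran between 18690501 and 36796414 reads in all of the 60 libraries but 1. An outlying library, replicate 2 of low-dose Saposhnikoviae Radix, had a total of 17079221 reads. Its best correlation with a library of its group was 0.844, against 0.989 or more elsewhere, and mitochondrial genes took 3.33% of its reads, against 6.19% to 12.3% elsewhere. It held 0 ABCB1 reads, and its ABCC4 level of 5.50 CPM (the count scaled to the size of its library) stood beside 95.1 and 96.4 CPM in the other libraries of its group. It is left out of the levels and tests below. Of 336 tests of a pump in a comparison, 102 were called without it and 32 with it in the fit, 31 of them in both. Where its presence ends a pump call named below, the adjusted p with it or the calls that held are given. Other named genes have no value with it, so whether their calls held is not shown. At high against low dose of Polygalae Radix 8.54% of all genes were called with it, against 29.3% without it. A call that ended need not mean that the log2 change moved. For ABCG2 at low-dose Aucklandiae Radix against vehicle it was 0.41 without that library and 0.42 with it. Of 10 gut epithelium markers, 8 averaged above 5 CPM, EPCAM and KRT20 included, and 1, CDX1, averaged under 1 CPM. Of 7 fibroblast markers 6, of 7 blood cell markers 5 and of 6 hepatocyte markers 5 averaged under 1 CPM. The exceptions above 5 CPM were LYZ (blood cell) and SERPINA1 (hepatocyte). LYZ averaged higher than both EPCAM and KRT20, and SERPINA1 lay between them. The blood cell markers summed to between 980.5 and 1608 CPM over libraries, and the hepatocyte markers to between 172.1 and 377.1 CPM. The summed level of the gut epithelium markers ran from 7681 to 15390 CPM over libraries, and its part in the results was not tested.

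Per length, ABCC3 was the most abundant pump and ABCB1 and ABCC2 were the scarcest. In vehicle libraries the level per kb of merged exons averaged 50.9 CPM for ABCC3, 15.2 CPM for ABCC1, 12.7 CPM for ABCG2 and 9.71 CPM for ABCC4. It averaged 1.28 CPM per kb for ABCC5, 0.159 CPM per kb for ABCC2 and 0.106 CPM per kb for ABCB1. The vehicle libraries of ABCC2 and ABCB1 overlapped on this scale, while the other neighbours in the order did not. With the longest annotated transcript as the length the order was the same, but ABCG2 at 14.3 and ABCC4 at 13.6 CPM per kb then overlapped. ABCB1 rested on 16, 17 and 20 reads in the vehicle libraries, and ABCC2 on 20, 29 and 68 reads.

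**Figure D1:**
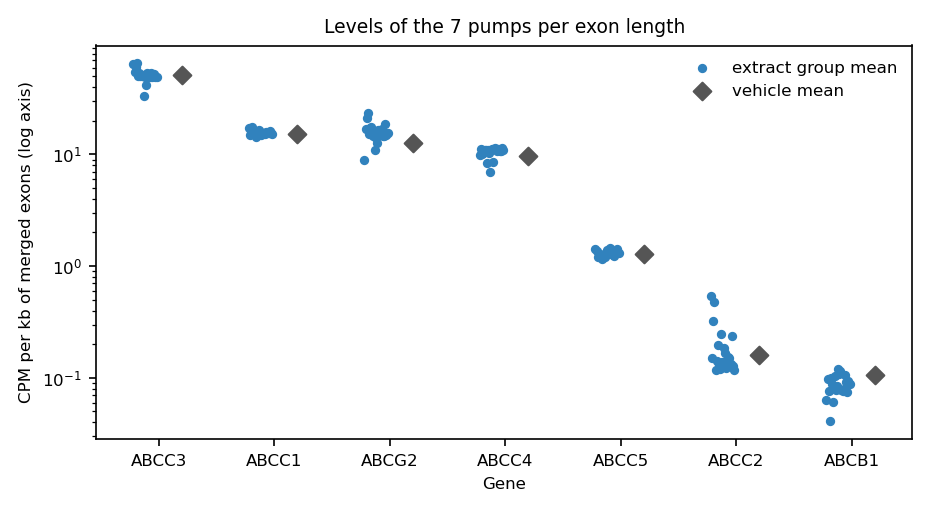
Mean level of each pump in CPM per kb of merged exons on a log axis, for the extract groups with 2 or 3 libraries (circles) and the vehicle (diamond). ABCC3 lies highest, with a vehicle mean of 50.9 CPM per kb, and ABCB1 lowest, with 0.106 CPM per kb. The highest group mean was 4.66 times the lowest for ABCC2, 2.91 times for ABCB1 and 2.66 times for ABCG2.

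High against low dose of the same extract uses no vehicle library. A pump was called at an adjusted p under 0.05 in edgeR (two-sided quasi-likelihood F-test, Benjamini-Hochberg over the 16978 genes), and adjusted p below means this value. Over the 7 extracts, 49 tests gave 10 higher, 7 lower and 32 not called. Guibi-tang had 5 pumps called beside 17.9% of all genes, and Aucklandiae Radix 5 beside 58.7%. Polygalae Radix had 3 beside 29.3% and Menthae Herba 2 beside 23.5%. Soyo-san had 1 beside 2.49%, Saposhnikoviae Radix 1 beside 0.289%, and Saengmaek-san 0 beside 0.848%. Of Saengmaek-san's 7 pumps, 3 had an unadjusted p under 0.05 with edgeR, and DESeq2 called 0 of the 5 to which it gave an adjusted p. The median log2 change over the 7 pumps was -0.37 for Polygalae Radix and 0.20 for Guibi-tang, where the median over all genes tested was -0.0089 and -0.0025. Medians of the other extracts are not given, so whether a shift was common to the extracts cannot be judged from these 2. With Aucklandiae Radix 3 pumps were called higher and 2 lower.

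**Figure D2:**
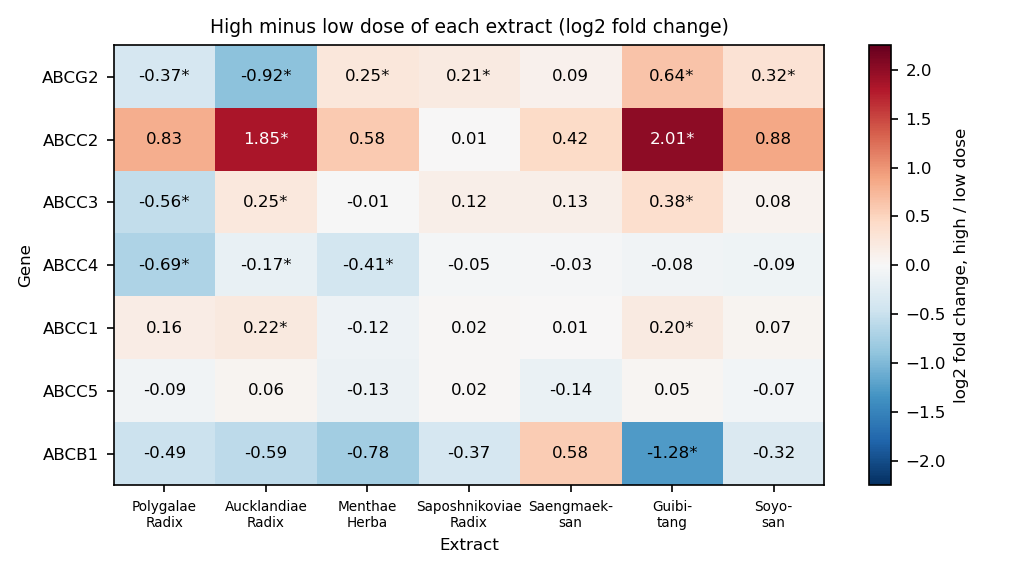
Log2 fold change of high over low dose for each pump (rows) and extract (columns), with an asterisk where adjusted p was under 0.05. The ABCC2 row holds the largest rises, 2.01 for Guibi-tang and 1.85 for Aucklandiae Radix, and the ABCG2 row runs from -0.92 to 0.64.

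ABCG2, which exports sulfated conjugates and many drugs, was called in 9 of 14 comparisons of a high or medium dose with the low dose, 6 of them higher and 3 lower. At medium against low dose few genes of any kind were called, 4.95% for Polygalae Radix, 2.6% for Aucklandiae Radix, 0.118% for Guibi-tang, 0.0294% for Menthae Herba and 0% for the other 3 extracts. With Guibi-tang it rose with each dose. The level was 75.9, 76.7 and 76.3 CPM at the low dose, 85.4, 87.9 and 86.4 CPM at the medium dose, and 119.8, 116.7 and 120.1 CPM at the high dose. No library of one dose overlapped another dose. High against low differed by 0.64 ± 0.03 on the log2 scale (SE, adjusted p = 1.77e-19), 1.56-fold, and medium against low by 0.18 (adjusted p = 0.00337, where 0.118% of all genes were called, and 1 with the outlying library).

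With Aucklandiae Radix the ABCG2 level was highest at the medium dose and lowest at the high dose. It was 86.4 and 83.4 CPM at the low dose, 104.5 and 107.7 CPM at the medium dose, and 44.1 and 45.4 CPM at the high dose. The high-dose libraries were the lowest of all 56 libraries tested. High against low gave -0.92 ± 0.04 (adjusted p = 7.78e-23), or 0.527 times the low-dose level. Medium against low gave 0.32 ± 0.04 (adjusted p = 3.2e-07, beside 2.6% of all genes called, and 1 with the outlying library). High against medium, a comparison added after the medium-dose value was seen, gave -1.25 ± 0.04 (adjusted p = 2.42e-27, beside 55.2% of all genes called).

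With Polygalae Radix ABCG2 fell at each step of dose. The libraries held 70.7 and 71.6 CPM at the low dose, 62.0 and 64.6 CPM at the medium dose, and 54.7 and 55.2 CPM at the high dose. High against low gave -0.37 ± 0.04 (adjusted p = 1.45e-09, and 0.167 with the outlying library), and medium against low gave -0.17 (adjusted p = 0.00927, and 1 with it). The other 3 rises called, all smaller, were 0.32 ± 0.04 for Soyo-san, 0.25 ± 0.03 for Menthae Herba and 0.21 ± 0.04 for Saposhnikoviae Radix, with adjusted p of 5.97e-07, 1.63e-07 and 0.00192. Adjusted p with the outlying library in the fit was 1 for Soyo-san and 0.387 for Menthae Herba. That library belongs to the low-dose group of Saposhnikoviae Radix, whose change was 0.51 with it, and without low-dose replicate 1 the adjusted p was 0.126 and without the low-count filter 0.159. Saengmaek-san gave 0.09 (95% interval 0.02 to 0.16, adjusted p = 0.213).

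**Figure D3:**
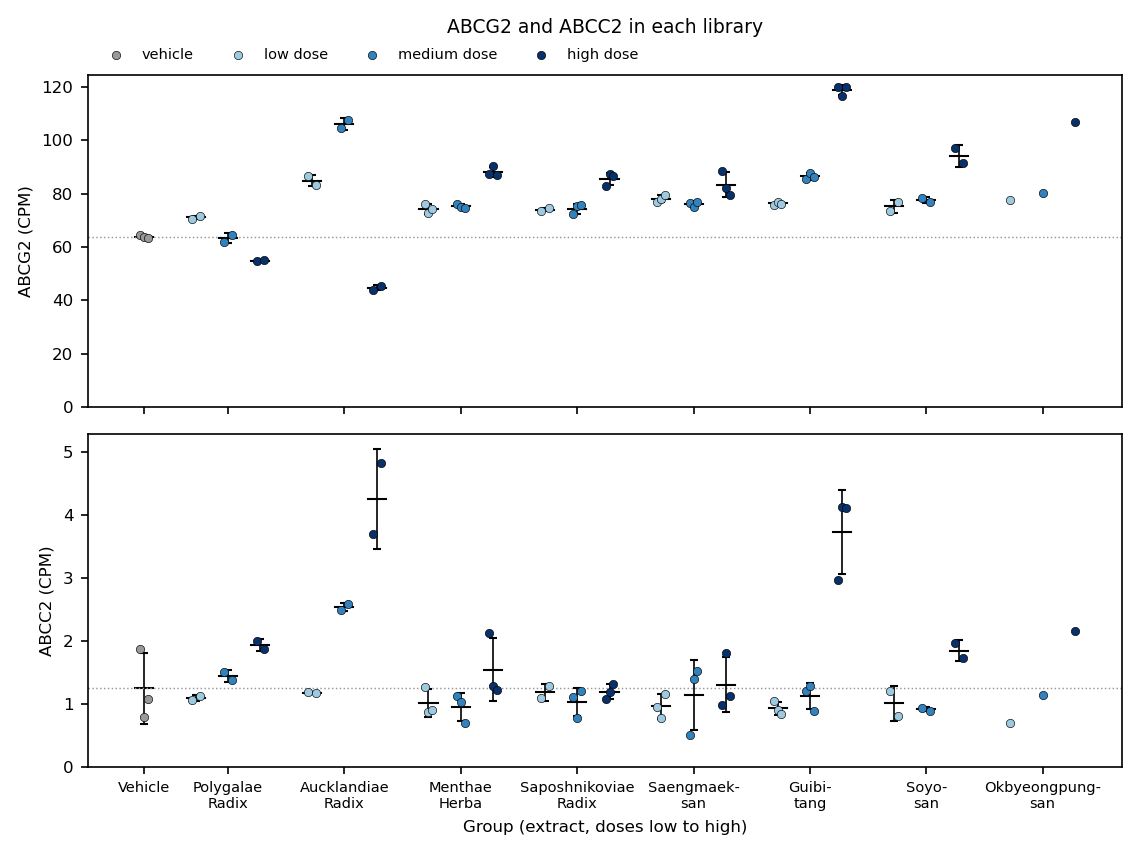
ABCG2 and ABCC2 levels in CPM, 1 point per library, in the vehicle and in each extract at low, medium and high dose, with the mean and SD where a group has 2 or 3 libraries and a dotted line at the vehicle mean. ABCG2 lies between 116.7 and 120.1 CPM at high-dose Guibi-tang and at 44.1 and 45.4 CPM at high-dose Aucklandiae Radix, and ABCC2 is highest in those same groups.

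ABCC2, the lumen-facing exporter of glutathione and glucuronide conjugates, was scarce in HT29 and rose most where it rose. At high-dose Guibi-tang it had 2.96, 4.12 and 4.10 CPM, against 1.04, 0.901 and 0.833 CPM at the low dose. Those values rest on 59, 92 and 89 reads at the high dose and 29, 25 and 21 reads at the low dose. The change was 2.01 ± 0.26 (adjusted p = 7.24e-08), or 4.02-fold with a 95% interval on the log2 scale of 1.48 to 2.53. The medium dose, at 1.20, 1.27 and 0.880 CPM, overlapped the low dose.

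With Aucklandiae Radix the ABCC2 level was 1.18 and 1.17 CPM at the low dose, 2.49 and 2.58 CPM at the medium dose, and 3.69 and 4.82 CPM at the high dose. The 3 doses did not overlap. High against low gave 1.85 ± 0.30 (adjusted p = 1.13e-06), 3.59-fold, and medium against low gave 1.11 ± 0.32 (adjusted p = 0.0454, and 0.296 with the outlying library). With Polygalae Radix ABCC2 had 1.99 and 1.87 CPM at the high dose, against 1.05 and 1.12 CPM at the low dose. The groups did not overlap, but the change of 0.83 ± 0.34 was not called (adjusted p = 0.0654). Soyo-san gave 0.88 (adjusted p = 0.185) and Menthae Herba 0.58 (adjusted p = 0.136), and Saengmaek-san and Saposhnikoviae Radix gave 0.42 and 0.01, none of them called.

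ABCC3, which carries glucuronides toward the blood side, rose with Guibi-tang and Aucklandiae Radix and fell with Polygalae Radix. At high-dose Guibi-tang it had 624.1, 623.7 and 637.3 CPM, against 501.9, 490.7 and 455.7 CPM at the low dose. The change was 0.38 ± 0.04 (adjusted p = 9.05e-10). Aucklandiae Radix gave 521.6 and 525.8 CPM at the low dose, 597.1 and 577.9 CPM at the medium dose, and 615.6 and 625.9 CPM at the high dose. High against low was 0.25 ± 0.05 (adjusted p = 4.6e-05).

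With Polygalae Radix ABCC3 fell, without overlap between doses. Its level was 482.1 and 464.6 CPM at the low dose, 399.7 and 399.4 CPM at the medium dose, and 326.5 and 317.2 CPM at the high dose. High against low was -0.56 ± 0.05 (adjusted p = 4.69e-12), and medium against low was -0.24 ± 0.05 (adjusted p = 0.00137, beside 4.95% of all genes called, and 0.206 with the outlying library). In the other 4 extracts the ABCC3 change of high over low lay between -0.01 and 0.13 and was not called.

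ABCC4, an exporter of cyclic nucleotides and prostaglandins, was called at high against low dose only downward, with Polygalae Radix, Menthae Herba and Aucklandiae Radix. Polygalae Radix gave 97.9 and 94.6 CPM at the low dose, 72.0 and 74.9 CPM at the medium dose, and 56.5 and 62.6 CPM at the high dose. High against low was -0.69 ± 0.06 (adjusted p = 4.61e-13), and the 3 doses did not overlap. Menthae Herba gave 74.1, 71.0 and 70.0 CPM at the high dose, against 97.3, 93.0 and 94.5 CPM at the low dose. Its change was -0.41 ± 0.05 (adjusted p = 5.22e-09), and its medium dose of 89.0, 91.4 and 89.1 CPM lay between them. Aucklandiae Radix gave -0.17 ± 0.06 (adjusted p = 0.00718), and without high-dose replicate 2 the adjusted p was 0.286. In the outlying library ABCC4 was lowest of the 60 libraries, and with it in the fit adjusted p was 0.406 for Polygalae Radix, 0.73 for Menthae Herba and 0.779 for Aucklandiae Radix.

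**Figure D4:**
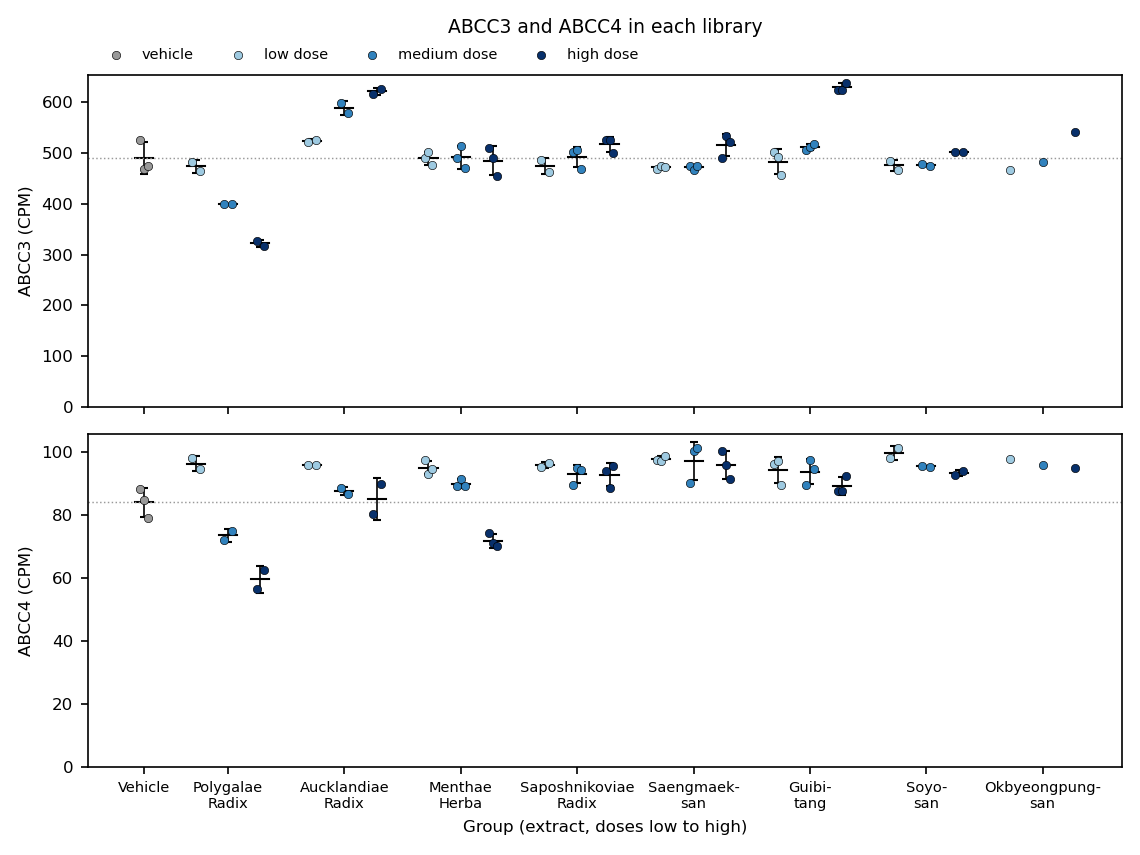
ABCC3 and ABCC4 levels in CPM, 1 point per library, in the vehicle and in each extract at low, medium and high dose, with the mean and SD where a group has 2 or 3 libraries and a dotted line at the vehicle mean. Both pumps fall from low to medium to high dose of Polygalae Radix, to 326.5 and 317.2 CPM for ABCC3 and 56.5 and 62.6 CPM for ABCC4. At its low dose ABCC4 lies above the vehicle, with means of 96.2 and 83.9 CPM. ABCC4 is low at high-dose Menthae Herba.

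ABCC1, a blood-side exporter of glutathione conjugates and leukotriene C4, varied little. At high-dose Aucklandiae Radix it had 127.1 and 134.5 CPM, against 109.1 and 116.0 CPM at the low dose, a change of 0.22 ± 0.07 (adjusted p = 0.00414). At high-dose Guibi-tang it had 130.8, 133.7 and 131.8 CPM, against 119.9, 121.5 and 104.0 CPM at the low dose, a change of 0.20 ± 0.05 (adjusted p = 0.00635). The groups did not overlap in either extract. The Aucklandiae Radix call was lost without high-dose replicate 3 (adjusted p = 0.0502) or low-dose replicate 2 (0.0576), and the Guibi-tang call without low-dose replicate 3 (0.106). The outlying library moved the adjusted p to 0.504 and 0.85.

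ABCC5, known to export cyclic nucleotides and nucleotide-based drugs, was not called at high against low or medium against low dose in any of the 7 extracts. Of those 14 tests, 2 had an unadjusted p under 0.05 with edgeR, and DESeq2 called 0. Its 22 group means lay between 13.3 and 16.5 CPM. The only call of any test was high against medium dose of Aucklandiae Radix, with 16.3 and 16.6 CPM against 13.7 and 13.9 CPM, a change of 0.25 ± 0.09 (adjusted p = 0.0111, and 0.341 with the outlying library). Against the low dose the same high-dose libraries differed by 0.06 on the log2 scale (95% interval -0.11 to 0.23).

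ABCB1, the P-glycoprotein gene, had between 2 and 26 reads in each of the 56 libraries, so its values carry the widest error. At high-dose Guibi-tang it had 0.351, 0.269 and 0.0922 CPM (7, 6 and 2 reads), against 0.788, 0.577 and 0.357 CPM (22, 16 and 9 reads) at the low dose. The groups were narrowly apart, and the change was -1.28 ± 0.44 (adjusted p = 0.0355). DESeq2 gave an adjusted p of 0.0654, and without high-dose replicate 3 it was 0.226, without low-dose replicate 1 0.189, and with the outlying library 0.194. In the other 6 extracts the ABCB1 change lay between -0.78 and 0.58 and was not called.

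High against medium dose gave 8 higher, 5 lower and 36 not called of 49 pump tests. The share of all genes called was 55.2% for Aucklandiae Radix, 18.9% and 13.8% for Polygalae Radix and Menthae Herba, 12.5% for Guibi-tang, 0.701% for Soyo-san, 0.283% for Saposhnikoviae Radix and 0.194% for Saengmaek-san. ABCG2 was called in 6 of the 7 extracts, lower with Polygalae Radix (-0.20) and Aucklandiae Radix and higher in the other 4 (0.20 to 0.46). With the outlying library in the fit only the Aucklandiae Radix and Guibi-tang calls of these 6 held (adjusted p = 4.76e-08 and 0.0445), and adjusted p was 0.782 for Polygalae Radix, 0.65 for Menthae Herba and 1 for Saposhnikoviae Radix and for Soyo-san.

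Within 1 extract, pumps were called in both directions. At high-dose Aucklandiae Radix, ABCC2, ABCC3 and ABCC1 rose against the low dose while ABCG2 and ABCC4 fell. With Guibi-tang ABCC2, ABCG2, ABCC3 and ABCC1 rose and ABCB1 fell. The ABCB1 fall rested on few reads and was not called by DESeq2. The ABCC1 calls of both extracts and the ABCC4 call of Aucklandiae Radix were lost without single libraries, as given above. Of all genes, 29.6% were called higher and 29.1% lower with Aucklandiae Radix, and 8.84% and 9.08% with Guibi-tang. All 3 pumps called for Polygalae Radix, ABCC4, ABCC3 and ABCG2, fell, where 16% of all genes were called lower. Over the 22 group means ABCC3 and ABCG2 correlated at a Pearson r of 0.423, and at 0.875 with high-dose Aucklandiae Radix left out. ABCC2 and ABCC1 correlated at 0.734, and at 0.635 with that group left out. ABCC2 and the scarce ABCB1 correlated at -0.639, and at -0.633 with that group left out. The other pairs are not listed. These are descriptions over groups that share library sets.

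Extracts of the same library set were compared at high dose, with p adjusted over all genes within each comparison. The 3 comparisons gave 2 higher, 9 lower and 10 not called among 21 tests. Polygalae Radix against Aucklandiae Radix differed in 4 pumps beside 58.3% of all genes. ABCC3 was lower by 0.95 on the log2 scale with Polygalae Radix (-0.95 ± 0.05, adjusted p = 2.92e-20), ABCC2 gave -1.13 ± 0.29 (adjusted p = 0.000761), and ABCC4 gave -0.51 ± 0.06 (adjusted p = 3.42e-10). ABCG2 was higher, 54.7 and 55.2 CPM with Polygalae Radix against 44.1 and 45.4 CPM with Aucklandiae Radix (0.30 ± 0.04, adjusted p = 9.79e-08). Adding the outlying library gave an adjusted p of 0.376 for ABCC4 and 0.152 for ABCG2. These doses were 380 and 370 µg/mL.

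Saengmaek-san against Guibi-tang at 500 µg/mL differed in 5 pumps beside 12.7% of all genes. ABCC2 had 0.975, 1.81 and 1.13 CPM with Saengmaek-san, against 2.96, 4.12 and 4.10 CPM with Guibi-tang (-1.53 ± 0.26, adjusted p = 1.98e-05). ABCG2 had 88.4, 82.1 and 79.4 CPM with Saengmaek-san, against 119.8, 116.7 and 120.1 CPM with Guibi-tang (-0.51 ± 0.03, adjusted p = 5.93e-16). ABCC3 gave -0.29 ± 0.04 (adjusted p = 8.96e-07) and ABCC1 -0.16 ± 0.05 (adjusted p = 0.0363). ABCB1 was higher with Saengmaek-san, at 0.462, 0.638 and 0.895 CPM, against 0.351, 0.269 and 0.0922 CPM with Guibi-tang (1.51 ± 0.44, adjusted p = 0.0161). The ABCC1 call was lost without any 1 of the 6 libraries (adjusted p between 0.0652 and 0.106), and the ABCB1 call without Guibi-tang replicate 3 (adjusted p = 0.133) or Saengmaek-san replicate 3 (0.145). The outlying library brought the adjusted p to 1 for ABCC1 and 0.135 for ABCB1.

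Menthae Herba against Saposhnikoviae Radix at 500 µg/mL differed in 2 pumps beside 16.1% of all genes. ABCC4 had 74.1, 71.0 and 70.0 CPM with Menthae Herba, against 93.9, 88.6 and 95.5 CPM with Saposhnikoviae Radix (-0.37 ± 0.05, adjusted p = 1.08e-07, and 0.908 with the outlying library). ABCC1 gave -0.16 ± 0.05 (adjusted p = 0.0377), a call that ended without any 1 of 5 of the 6 libraries (adjusted p between 0.0668 and 0.263) and with the outlying library (adjusted p = 0.963). ABCG2 differed by 0.04, with a 95% interval of -0.02 to 0.11.

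The change of high over low dose itself differed between extracts of a set in 8 of 21 pump tests, 2 with a larger and 6 with a smaller value in the first extract. Beside them 46.6% of all genes differed for Polygalae Radix against Aucklandiae Radix, 3.59% for Menthae Herba against Saposhnikoviae Radix and 7.2% for Saengmaek-san against Guibi-tang.

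Comparisons with the vehicle share its 3 libraries, and those libraries have a set name of their own, so extract and library set cannot be told apart in them. At high dose against vehicle, 49 tests gave 14 higher, 6 lower and 29 not called. Of all genes, 36.5% were called for Polygalae Radix, 62% for Aucklandiae Radix, 28.2% for Menthae Herba and 10.2% for Saposhnikoviae Radix. The formulas had 12% (Saengmaek-san), 29.4% (Guibi-tang) and 17.7% (Soyo-san). ABCG2 had 64.4, 63.9 and 63.3 CPM in the vehicle libraries. It was higher than that in 5 of the 7 high-dose groups, led by Guibi-tang at 0.90 ± 0.03 (adjusted p = 1.29e-24), and lower at high-dose Aucklandiae Radix (-0.51 ± 0.04, adjusted p = 2e-15) and Polygalae Radix (-0.22 ± 0.04, adjusted p = 1.21e-05). With the outlying library the Polygalae Radix adjusted p was 0.441, that of Saposhnikoviae Radix 0.237 and that of Saengmaek-san 0.259. ABCB1 was lower at high-dose Guibi-tang (-1.35 ± 0.43, adjusted p = 0.0154), a call lost without Guibi-tang high replicate 3 (0.128), without vehicle replicate 2 (0.066) and with the outlying library (0.116). At medium dose against vehicle, 49 tests gave 11 higher, 2 lower and 36 not called. Beside them 13.6% of all genes were called for Aucklandiae Radix, 11.4% for Saengmaek-san, 11% for Guibi-tang, 10.1% each for Menthae Herba and Polygalae Radix, 8.58% for Soyo-san and 3.68% for Saposhnikoviae Radix.

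At low dose against vehicle, ABCG2 and ABCC4 were called higher in all 7 extracts, and no other pump was called in any. Of those other 35 tests, 2 had an unadjusted p under 0.05 with edgeR, and DESeq2 called 0 of the 22 to which it gave an adjusted p. The share of all genes called higher at low dose was 8.3% for Saengmaek-san, 5.1% for Saposhnikoviae Radix, 4.44% for Soyo-san, 4.33% for Polygalae Radix, 4.23% for Menthae Herba, 2.92% for Guibi-tang and 2.37% for Aucklandiae Radix. The ABCG2 change lay between 0.16 and 0.41 and the ABCC4 change between 0.17 and 0.25. All 14 calls ended with the outlying library in the fit (adjusted p between 0.469 and 1). In Saposhnikoviae Radix, to whose low-dose group it belongs, both changes then turned negative (-0.08 for ABCG2 and -0.33 for ABCC4). In the other extracts both changes hardly moved, as for ABCG2 with Aucklandiae Radix (0.41 without that library and 0.42 with it). Without vehicle replicate 3 the ABCC4 call was lost for 5 of the 7 extracts, all but Saengmaek-san and Soyo-san (adjusted p between 0.0963 and 0.189). It was also lost without either low-dose library of Polygalae Radix, Aucklandiae Radix or Saposhnikoviae Radix, without replicate 1 of Menthae Herba, without replicate 1 or 2 of Guibi-tang and without replicate 2 of Soyo-san (0.0598 to 0.214). The ABCG2 call was lost for Polygalae Radix without either of its low-dose libraries (0.0653 and 0.0984). The low-dose groups come from 4 library sets and share the vehicle libraries as reference. ABCC2 had 1.88, 0.792 and 1.07 CPM in the vehicle libraries, and it was called against the vehicle in 3 of 21 groups. They were high-dose Guibi-tang (1.53 ± 0.24, adjusted p = 3.92e-06) and Aucklandiae Radix at high (1.72 ± 0.26, adjusted p = 2.01e-07) and medium dose (0.98, adjusted p = 0.0136, and 0.12 with the outlying library). Vehicle replicate 1 was the deepest library. Without it, ABCC2 at high-dose Polygalae Radix and Soyo-san was called against the vehicle (adjusted p = 0.008 and 0.0257).

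**Figure D5:**
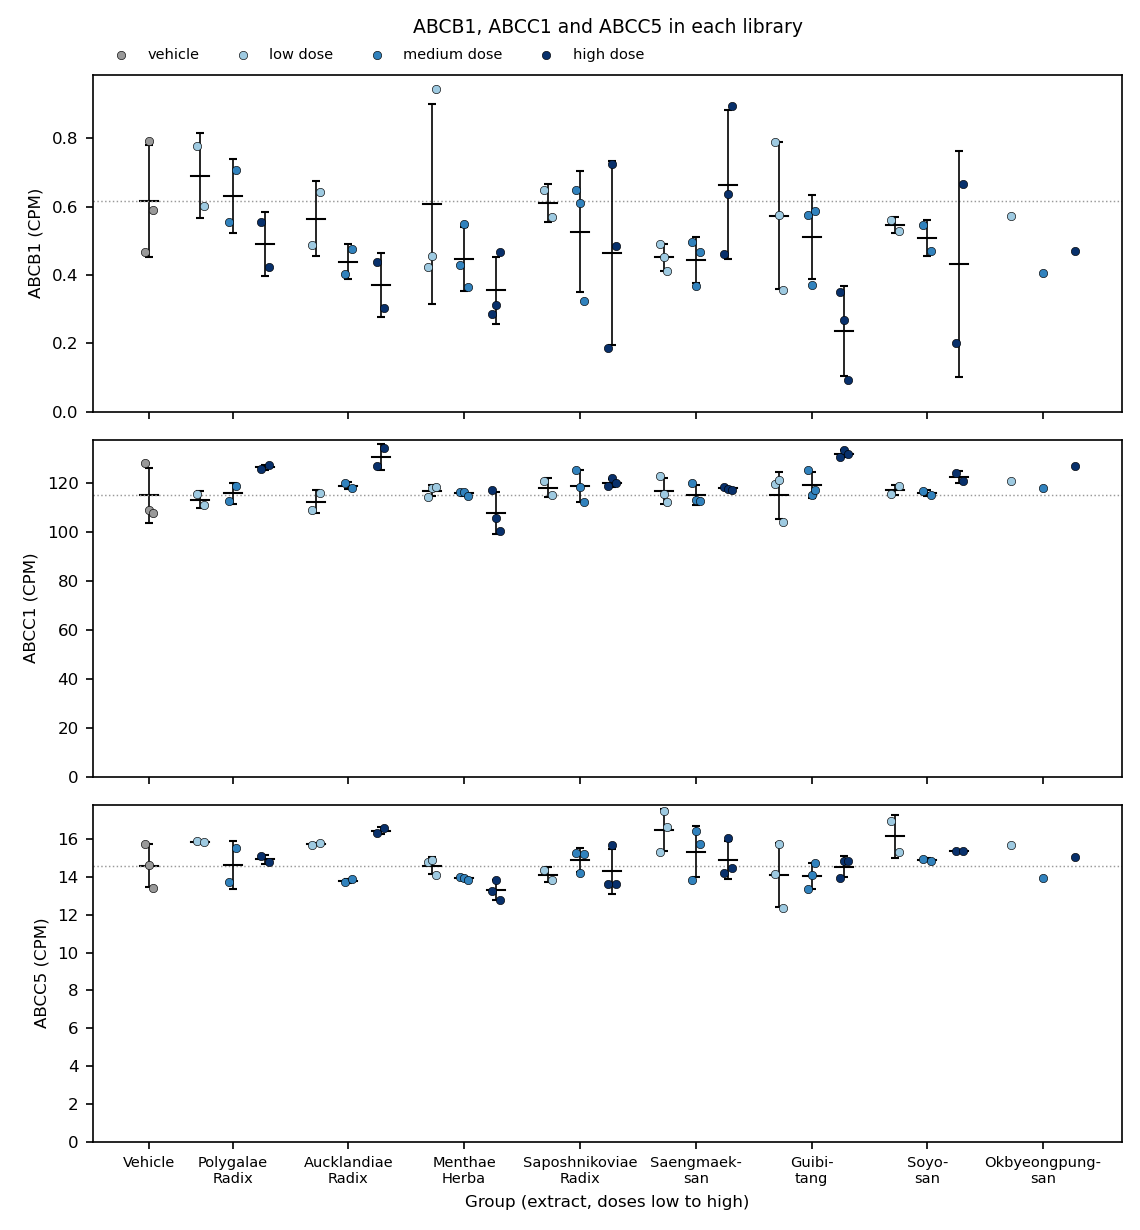
ABCB1, ABCC1 and ABCC5 levels in CPM, 1 point per library, in the vehicle and in each extract at low, medium and high dose, with the mean and SD where a group has 2 or 3 libraries and a dotted line at the vehicle mean. ABCB1 stays under 1 CPM in every library, with its lowest library, 0.0922 CPM, at high-dose Guibi-tang, while ABCC1 and ABCC5 keep to a narrow band.

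Targets of the factors known to regulate pumps were called in several extracts. The gene lists used here and below were chosen with earlier results of these data known. Their counts are descriptions and do not test a factor. Of 24 NRF2 targets, a list that includes ABCC2 and ABCC3, all 24 rose at high against low dose of Guibi-tang, 22 rose with Aucklandiae Radix and 22 with Menthae Herba, and 11 rose and 9 fell with Polygalae Radix. Of all genes tested, 8.84% were called higher with Guibi-tang, 29.6% with Aucklandiae Radix, 12% with Menthae Herba and 13.3% with Polygalae Radix, and 16% were called lower with Polygalae Radix. The list's median change was 0.77 for Guibi-tang and 1.24 for Aucklandiae Radix, beside -0.0025 and -0.0180 over all genes. HMOX1, the heme-degrading enzyme, averaged 62.5 CPM at high-dose and 11.6 CPM at low-dose Aucklandiae Radix (log2 change 2.43, adjusted p = 3.03e-27). NQO1, a quinone reductase, averaged 300.1 CPM at high-dose and 487.0 CPM at low-dose Polygalae Radix (-0.70, adjusted p = 3.28e-16), while with Guibi-tang it averaged 881.3 and 529.6 CPM (0.73, adjusted p = 1.52e-19).

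Of 8 tested AHR targets, a list that includes ABCG2, 7 rose with Guibi-tang, Menthae Herba and Soyo-san, 6 with Saposhnikoviae Radix, 5 with Saengmaek-san, 4 with Aucklandiae Radix and 1 with Polygalae Radix. The share of all genes called higher was 1.11% for Soyo-san, 0.183% for Saposhnikoviae Radix and 0.412% for Saengmaek-san, and as given for the NRF2 targets in the other 4 extracts. CYP1A1, a detoxifying oxidase, averaged 7.13 CPM at high-dose and 0.552 CPM at low-dose Aucklandiae Radix (3.69, adjusted p = 2.04e-16). In that same extract 4 members fell, led by ABCG2 and UGT1A6, a glucuronidating enzyme that averaged 29.4 CPM at high and 55.2 CPM at low dose (-0.91, adjusted p = 2.67e-13). UGT1A6 was also the gene whose group means followed ABCG2 most closely among 10558 candidates averaging at least 5 CPM (Pearson r 0.941 over 22 groups, 0.908 without high-dose Aucklandiae Radix). UGT1A genes share exons, so reads can be divided among them. The closest gene to ABCC2 was CEACAM5 (0.934), to ABCC3 ALG8 (0.952), to ABCC4 DNHD1 (0.939), to ABCC1 SLC9A7 (0.845), to ABCB1 TM7SF2 (0.822) and to ABCC5 ZNF623 (0.697). These correlations are descriptions over 22 group means from shared library sets.

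PXR and CAR targets, 7 tested, gave 3 rises and 2 falls with Guibi-tang, with ABCC2 among the rises and ABCB1 among the falls, and 2 of each with Aucklandiae Radix. Beside them 17.9% of all genes were called with Guibi-tang and 58.7% with Aucklandiae Radix, so the Aucklandiae Radix count, 4 of 7, is near that of all genes. Among 11 tested xenobiotic sensors, 3 rose and 7 fell with Aucklandiae Radix, where 29.6% of all genes were called higher and 29.1% lower. AHR averaged 109.6 CPM at high-dose and 136.7 CPM at low-dose Aucklandiae Radix (-0.32, adjusted p = 0.00043), and HNF4A, a regulator of liver and gut genes, 38.1 and 88.0 CPM (-1.21, adjusted p = 5.53e-22). KEAP1, the NRF2 inhibitor, rose with Aucklandiae Radix (0.41), Menthae Herba (0.32), Polygalae Radix (0.32) and Guibi-tang (0.20).

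Genes of proteins that hold pumps at the membrane were called too. PDZK1, a scaffold that binds the tails of lumen-facing transporters, fell at high against low dose of Aucklandiae Radix (-2.83, adjusted p = 5.47e-26), Guibi-tang (-1.05, adjusted p = 6.27e-16), Menthae Herba (-0.83), Polygalae Radix (-0.56) and Soyo-san (-0.34). It averaged 1.85 CPM at high-dose and 13.2 CPM at low-dose Aucklandiae Radix. Of 7 tested anchors, 4 rose and 3 fell with Aucklandiae Radix, beside 58.7% of all genes called, the rises led by EZR (1.00) and MSN (0.99), which link membrane proteins to actin. With Polygalae Radix MSN fell (-0.95, adjusted p = 9.42e-23).

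The rest of the ABC family gave 27 tested genes of 41 listed. With Polygalae Radix 11 of them were called at high against low dose, all of them lower, where 16% of all genes were called lower. The median change over the 27 was -0.11, beside -0.0089 over all genes. With Aucklandiae Radix 11 rose and 7 fell, with Menthae Herba 4 rose and 8 fell, with Guibi-tang 5 rose and 2 fell, and with Soyo-san 1 rose. Beside these counts 29.3% of all genes were called with Polygalae Radix, 58.7% with Aucklandiae Radix, 23.5% with Menthae Herba, 17.9% with Guibi-tang and 2.49% with Soyo-san. CFTR, the chloride channel of the family, averaged 12.4 CPM at high-dose and 150.5 CPM at low-dose Aucklandiae Radix (-3.60, adjusted p = 2.54e-29). ABCG1, a cholesterol exporter, rose with Aucklandiae Radix (2.12) and Guibi-tang (1.07) and fell with Polygalae Radix (-1.28). ABCB4, a phospholipid transporter close to ABCB1 in sequence, fell with Aucklandiae Radix (-2.60), Polygalae Radix (-2.33), Menthae Herba (-1.75) and Guibi-tang (-1.23). Its means were under 1 CPM in the groups compared, so it rested on few reads.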

How the data were processed

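RNA-seq was measured in 60 libraries of HT29 cells in 25 groups. The authors deposited expected counts per gene, made with RSEM 1.3.3. Trim Galore 0.6.5, FastQC 0.11.9, STAR 2.7.3a and the build hg38 are also named in the submitters' processing notes. Which annotation and strand setting were used is not given here, so antisense reads cannot be separated with certainty, although the kit marks strand, per the labels' protocols. Of the expected counts, 10.0% were not whole, and all were rounded. Of 60675 genes, 56558 matched a symbol, and 57055 were in GENCODE 29. Every column matched a sample label. The total count per library limits precision, and counting error was widest for ABCB1 and ABCC2.

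The test was edgeR's (version 4.0.16, R 4.3.3) quasi-likelihood F-test, two-sided, after TMM scaling and filterByExpr by group, on 56 libraries with a coefficient for each of 22 groups and 34 residual degrees of freedom. Adjustment was by Benjamini-Hochberg over 16978 genes. The standard error (SE) is the log2 change divided by the square root of F. CPM used TMM-scaled totals, which gave high- and low-dose Aucklandiae Radix means of 84.93 and 95.77 CPM for ABCC4. For ABCC1 they were 130.8 and 112.5 CPM, and for ABCC3 620.8 and 523.7 CPM. On plain totals the same means were 79.85 and 95.61, 123 and 112.4, and 583.6 and 522.8 CPM. The directions were the same, but the sizes of such changes depend on the scaling. Promoters came from RefSeq. The 7 pumps and the gene lists were chosen with earlier results of these data known. All 7 pumps are named. From each list at most the 2 largest rises and 2 largest falls of a comparison were named, besides single sensors, anchors and textbook targets (HMOX1, NQO1, CYP1A1, AHR and KEAP1) picked after their values were seen, and for each pump the gene with the most similar group means. Alternatives were the outlying library in the fit, DESeq2 1.42.0 (test or size factors), no filter, only the groups compared, Okbyeongpung-san in the fit, replicate blocks and leaving out each library. Lists of uptake carriers and conjugating enzymes are described in the closing section.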

Additional observations from a re-analysis of the deposited data

Results flagged for a closer look

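The change of high over low dose differed between the 2 extracts of a library set for 8 of 21 pump tests, by an interaction term in edgeR's quasi-likelihood F-test adjusted over all genes. Values are the log2 change of the first extract minus that of the second. For Polygalae Radix minus Aucklandiae Radix, 46.6% of all genes passed, and so did ABCC3 (-0.80, adjusted p = 8.01e-13), ABCC4 (-0.52, adjusted p = 7.75e-07) and ABCG2 (0.55, adjusted p = 1.41e-10). For ABCC3 the extracts' own changes had opposite signs, -0.56 for Polygalae Radix and 0.25 for Aucklandiae Radix. For ABCG2 both fell, by 0.37 with Polygalae Radix and by 0.92 with Aucklandiae Radix.

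For Menthae Herba minus Saposhnikoviae Radix, 3.59% of all genes passed, and of the pumps ABCC4 (-0.36, adjusted p = 0.001). For Saengmaek-san minus Guibi-tang, 7.2% of all genes passed, and of the pumps ABCG2 (-0.55, adjusted p = 9.8e-12), ABCC3 (-0.25, adjusted p = 0.00309), ABCC2 (-1.58, adjusted p = 0.00877) and ABCB1 (1.86, adjusted p = 0.0417). The ABCB1 difference rests on few reads and was lost without any of 9 of the 12 libraries (adjusted p up to 0.169). With the outlying library in the fit, the ABCC3 difference between Polygalae Radix and Aucklandiae Radix was the only one of the 8 still called (-0.80, adjusted p = 1.98e-07).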

How the results depend on the processing

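The outlying library moved the counts of called pumps most. With it in the fit, calls over each dose against vehicle were 12, against 47 without it, over high or medium against low dose 9 against 23, over extracts of a set 5 against 11, over differences of changes 1 against 8, and over high against medium dose 5 against 13. Against vehicle at high dose it left 3 for Guibi-tang, 1 each for Soyo-san, Polygalae Radix and Menthae Herba, and 0 each for Saengmaek-san and Saposhnikoviae Radix. Of all genes, 6.31% were then called for Guibi-tang, 11% for Polygalae Radix, 5.92% for Menthae Herba and 0.872% for Soyo-san. Saengmaek-san had 0.41% and Saposhnikoviae Radix 0.287%. For high against low the outlying library left 3 each for Guibi-tang and Aucklandiae Radix, 2 for Saposhnikoviae Radix, 1 for Polygalae Radix, and 0 each for Soyo-san and Menthae Herba. Of all genes, 4.66% were then called for Guibi-tang, 36.1% for Aucklandiae Radix, 8.54% for Polygalae Radix, 0.0702% for Soyo-san and 5.25% for Menthae Herba. For Saposhnikoviae Radix the share was 27.5% with that library and 0.289% without it. For pairs of extracts it left 3 for Saengmaek-san against Guibi-tang, 2 for Polygalae Radix against Aucklandiae Radix and 0 for Menthae Herba against Saposhnikoviae Radix. Beside these counts 2.78%, 35.8% and 2.26% of all genes were called, in that order. The outlying library turned ABCC4 (-0.33, adjusted p = 0.475) and ABCG2 (-0.078, adjusted p = 0.676) at low-dose Saposhnikoviae Radix against vehicle, in whose group it lies. Against vehicle at low and medium dose, changes outside that group hardly moved. For ABCC4 at low-dose Soyo-san the change was 0.247 without that library and 0.253 with it. All groups share 1 estimate of the spread in the fit. Why calls ended outside its group was not tested. With only the 2 groups compared in the fit, calls against vehicle were 20, those at high dose 1 each for Saposhnikoviae Radix, Saengmaek-san and Soyo-san, and Guibi-tang high against low 3, with fewer samples to estimate the spread. Of all genes, 4.16% were then called for Saposhnikoviae Radix, 1.3% for Saengmaek-san and 2.02% for Soyo-san, and 13.7% for Guibi-tang high against low. Without a low-count filter there was 1 call at high dose against vehicle for Saposhnikoviae Radix and for Soyo-san, 0 for Saposhnikoviae Radix high against low, and 1 for Menthae Herba against Saposhnikoviae Radix. Beside them 5.48%, 7.81%, 0.533% and 7.22% of all genes were called, in that order.

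Whether replicate numbers pair the samples was not settled. Correlations of same-numbered libraries' deviations within a set ran from -0.319 to 0.649, with medians between 0.00581 and 0.102. For libraries with different numbers the medians lay between -0.0882 and -0.00581. Where a group has 2 libraries, their deviations mirror each other by construction. A replicate block within the library set gave 28 calls over doses, against 23 without it, with 5 for Polygalae Radix and 1 for Saengmaek-san at high against low, and the plain replicate block gave 48 calls against vehicle. Of all genes, 31.5% and 1.72% were called at high against low dose of Polygalae Radix and Saengmaek-san with the block within the set.

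Leaving out 1 library at a time gave 34 to 56 calls against vehicle (34 without vehicle replicate 3, 56 without vehicle replicate 1), 21 to 24 over doses, 9 to 12 over pairs of extracts, 7 to 9 for differences of changes and 11 to 14 for high against medium. By comparison, high against vehicle gave 3 to 5 for Polygalae Radix, Aucklandiae Radix 3 to 5, Menthae Herba 2 to 3, Saposhnikoviae Radix 1 to 3, Saengmaek-san 1 to 3, Guibi-tang 4 to 5 and Soyo-san 1 to 4. High against low gave 3 for Polygalae Radix, 4 to 5 for Aucklandiae Radix and for Guibi-tang, 2 to 3 for Menthae Herba, 0 to 1 for Saposhnikoviae Radix, 0 for Saengmaek-san and 1 for Soyo-san. Pairs gave 4 for Polygalae Radix against Aucklandiae Radix, 1 to 3 for Menthae Herba against Saposhnikoviae Radix, and 3 to 4 for Saengmaek-san and Guibi-tang. The share of all genes called is not given for the fits with 1 library left out. DESeq2's size factors and Wald test, and Okbyeongpung-san in the fit, kept all these counts within 1.5 times. Read depth limits ABCB1 and ABCC2.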

Other observations

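Okbyeongpung-san had 1 library per dose and no test. ABCG2 was 77.6, 80.2 and 106.9 CPM at its low, medium and high dose, and ABCC2 was 0.694, 1.14 and 2.15 CPM (17, 28 and 55 reads). ABCC3 was 466.0, 481.2 and 540.0 CPM, and ABCC1 120.9, 117.9 and 127.0 CPM. ABCC4 was 97.78, 95.73 and 94.95 CPM, ABCC5 15.7, 14.0 and 15.1 CPM, and ABCB1 0.571, 0.407 and 0.469 CPM (14, 10 and 12 reads). For ABCG2 and ABCC2 the high-dose library was the highest of the 3.

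Of 23 tested conjugating enzymes, which make the conjugates that pumps carry, 1 rose and 14 fell at high against low dose of Polygalae Radix, and 5 rose and 12 fell with Aucklandiae Radix. Of all genes, 13.3% were called higher and 16% lower with Polygalae Radix, and 29.6% higher and 29.1% lower with Aucklandiae Radix. UGT2B7, a glucuronidating enzyme, averaged 0.0947 CPM at high-dose and 1.16 CPM at low-dose Aucklandiae Radix (log2 change -3.48, adjusted p = 2.4e-08 with edgeR), and UGT2B15 was at 0 in the high-dose libraries and 0.373 CPM at low dose. Both genes are scarce, so these values rest on few reads. SULT2B1, a sterol sulfotransferase, averaged 291.1 CPM at high-dose and 50.9 CPM at low-dose Aucklandiae Radix (log2 change 2.51, adjusted p = 4.39e-28). With Menthae Herba 7 rose and 5 fell, and with Guibi-tang 6 rose and 3 fell, beside 23.5% and 17.9% of all genes called. Of 17 tested drug uptake carriers, 8 rose and 5 fell with Aucklandiae Radix and 5 rose and 2 fell with Guibi-tang, beside 58.7% and 17.9% of all genes called. SLCO2B1, an organic anion carrier, fell with Menthae Herba (-1.45), Aucklandiae Radix (-1.21) and Soyo-san (-1.09), and SLC22A3, an organic cation carrier, rose with Guibi-tang (1.01) and Menthae Herba (0.74).

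Of the 10 gut epithelium markers, 8 fell at high against low dose of Polygalae Radix, led by VIL1 (-1.58), and 4 rose and 4 fell with Aucklandiae Radix, with KRT20 (1.52) among the rises and CDX2 (-1.98) among the falls. Beside them 29.3% of all genes were called with Polygalae Radix, 16% of all genes as lower, and 58.7% with Aucklandiae Radix. These counts, like all list counts and the calls of named genes other than the pumps, are from the fit without the outlying library. List counts were not recomputed with it, and no values with it are given for those genes. The part of the markers in the pump values was not tested.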
